A study of Mus musculus with 10 samples.

Results

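Perforin, the granule matrix proteoglycan serglycin, and the proteins that process, package and release the contents of cytotoxic granules were followed as 9 genes, Prf1, Srgn, Ctsc, Ctsw, Cst7, Nkg7, Lamp1, Rab27a and Unc13d. Their probe sets were taken by gene symbol, and the platform annotation gave them 15 of the 45101 probe sets on the Affymetrix MOE430_2 array. The groups were 3 arrays of splenic natural killer (NK) cells of wild type C57Bl/6 mice kept for 24 h with 100 ng/mL recombinant murine IL-15, 3 arrays of the same kind of cell lysed straight after sorting (resting NK cells), and 4 arrays of unsorted resting splenocytes. NK cells had been flow sorted as NK1.1-positive and CD3-negative, and the spread between NK arrays is that of 3 biological replicates per condition, while the 4 splenocyte chips came from 2 biological samples and the labels do not say which chips belong together. Tests against splenocytes therefore count 2 splenocyte samples. The labels give no mouse age, no strain for the splenocytes and no NK cells cultured without IL-15, so IL-15 and 24 h of culture cannot be told apart.

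Cytotoxic lymphocytes carry secretory lysosomes in which serglycin, a proteoglycan with long sulfated sugar chains, binds perforin and granzymes. Cathepsin C (Ctsc) trims the propeptides of granzymes, and cystatin F (Cst7) is an inhibitor that restrains cathepsins in these cells. On contact with a target cell the granules are docked by the GTPase Rab27a, primed by Munc13-4 (Unc13d) and fused with the plasma membrane, where Lamp1, a glycoprotein of the lysosomal membrane, becomes exposed and perforin forms pores in the target membrane.

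Most of these transcripts were higher in NK cells than in splenocytes, and at the brightest probe set of each gene no difference after IL-15 passed the test. Perforin signal was 50.2-fold higher in IL-15 NK cells and 64.2-fold higher in resting NK cells than in splenocytes, and Nkg7, Ctsw and Cst7 were 3.92-fold to 12.3-fold higher. Rab27a and Unc13d were 1.78-fold to 2.57-fold higher. Serglycin went the other way, lower by 1.95-fold in IL-15 NK and 2.06-fold in resting NK cells than in splenocytes. Between the NK groups no gene, taken at its brightest probe set, differed by more than 1.41-fold in geometric mean. With adjustment over all probe sets tested, 0 of 9 passed, where 24.8% of all probe sets did. Nkg7, lower after IL-15, passed in 4 of 16 alternative settings.

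The arrays carry 1 linear signal per probe set, with the same trimmed mean on every array, and signals at or below a floor of 179.85 units were set to it. Signals above it made up 51.1% to 56.5% of each IL-15 NK, 57.8% to 61.7% of each resting NK and 61.2% to 62.4% of each splenocyte array. The labelled cell types were checked against markers, which the plot of summed marker signals shows. All 9 measured NK markers, a list that holds Nkg7 itself, lay above the floor on every array, with summed signals of 368964 to 392771.5 on IL-15 NK, 486392.7 to 589586.4 on resting NK and 55366.6 to 72212.1 on splenocyte arrays. Of 11 B-cell markers 4 to 6 lay above the floor on IL-15 NK arrays and 6 to 11 on resting NK arrays, and their summed signals were 2331.9 to 2973.4 on IL-15 NK, 7221.8 to 49225.4 on resting NK and 419122.9 to 573367.2 on splenocyte arrays. Cd79a, Ms4a1, Fcrla and Cr2 did not exceed the floor after IL-15, while resting NK replicates 1 and 2 had all 11 B-cell markers above it and replicate 3 had 6. Summed signals of 11 macrophage and monocyte markers were 1196.6 to 1878.1 on IL-15 NK, 6821.5 to 28660.2 on resting NK and 204266.1 to 232643.6 on splenocyte arrays, with C1qa and Marco at the floor on all NK arrays. Of 9 T-cell markers 5 lay above the floor on IL-15 NK and 5 to 7 on resting NK arrays, with Cd4 at the floor on all of them. T-cell marker sums were 5473.2 to 5981.5 on IL-15 NK, 8028.4 to 12123.6 on resting NK and 80693.1 to 95985.6 on splenocyte arrays. Neutrophil markers summed to at most 3801.6 and erythroid and platelet markers to at most 1503.3 on any NK array, against at least 126435 and 38056.2 on any splenocyte array.

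**Figure D1:**
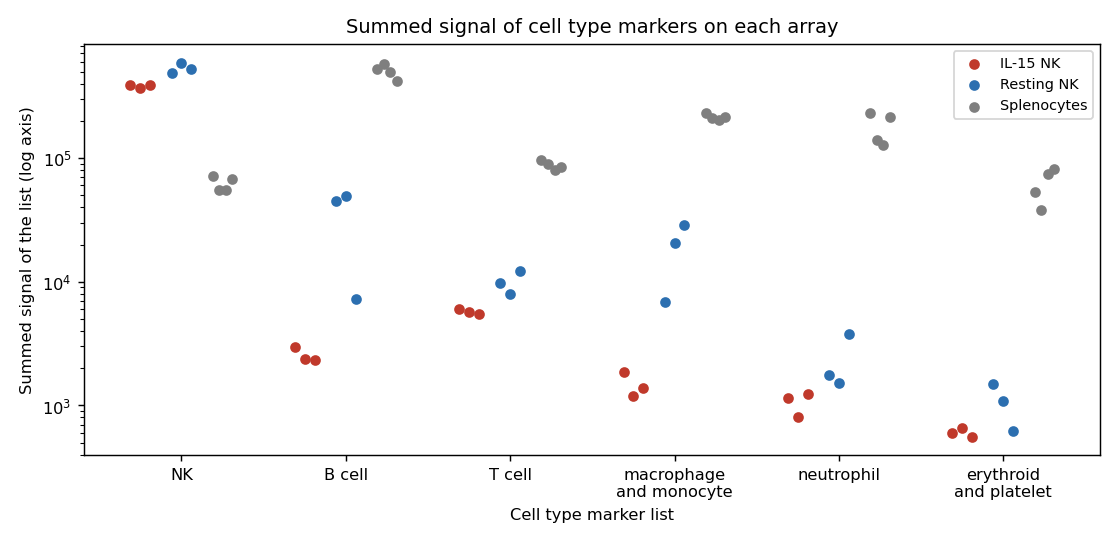
Summed signal (log axis) of the measured markers of 6 cell types on each array, with IL-15 NK, resting NK and splenocyte arrays from left to right within each list. B-cell markers summed to 45180.8 and 49225.4 on resting NK replicates 1 and 2, against 7221.8 on replicate 3 and at most 2973.4 on IL-15 NK arrays.

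Ratios of 3-prime to 5-prime control signal, a measure of RNA and labelling quality, differed by group. For Gapdh they were 2.90 to 3.81 on IL-15 NK, 5.88 to 9.54 on resting NK and 1.0 to 1.39 on splenocyte arrays. For Actb they were 1.28 to 1.49 on IL-15 NK, 2.27 to 6.51 on resting NK and 1.34 to 1.59 on splenocyte arrays. NK samples were amplified in 2 cycles and splenocyte samples in 1, per the labels' protocols, so amplification and cell source cannot be told apart in any comparison with splenocytes. The part of these measures and of other cell types in the differences below was not tested.

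Prf1 encodes perforin, the pore-forming protein of cytotoxic granules. Its bright probe set, 1451862_a_at, had signals of 67660.5, 52850.5 and 67146.1 on IL-15 NK arrays, 74071.7, 99359.2 and 68391.7 on resting NK arrays and 1630.9, 1508.2, 980.5 and 977.0 on splenocyte chips. Every NK array was far above every splenocyte chip, and all 3 IL-15 NK arrays lay below the lowest resting array, though by little for replicates 1 and 3. The log2 difference of IL-15 NK from resting NK cells was -0.36 ± 0.22 (SE, n = 3 arrays per group), with a 95% interval from -0.83 to 0.12, and did not pass (limma adjusted p = 0.257). Against splenocytes the log2 difference was 5.65 ± 0.25 in IL-15 NK and 6.00 ± 0.25 in resting NK cells (SE, limma adjusted p = 3.82e-06 and 3.44e-06). The 95% intervals were 33.8-fold to 74.5-fold in IL-15 NK and 43.2-fold to 95.4-fold in resting NK cells. Perforin signals on NK arrays reached 36.8% to 45.8% of the largest signal on the same array, and compression of differences near the top of the scale was not tested. In these bulk samples fewer cells that carry a transcript and less of it per cell cannot be told apart, here and for every splenocyte value that follows.

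Srgn encodes serglycin, which is made by many blood cell types. Its 1 probe set, 1417426_at, had signals of 31506.2, 48387.4 and 36213.3 on IL-15 NK, 33813.4, 55053.0 and 25038.9 on resting NK and 82008.7, 76677.0, 71666.5 and 67664.6 on splenocyte arrays. The NK groups overlapped, and all NK arrays were below all splenocyte chips. The spread was wide in resting NK cells, where the highest array was 2.20-fold above the lowest. IL-15 NK differed from resting NK cells by 0.08 ± 0.29 on the log2 scale (SE, 95% interval -0.55 to 0.71, limma adjusted p = 0.868), a value whose sign turned without IL-15 NK replicate 2 (-0.09) or without resting NK replicate 3 (-0.18). Relative to splenocytes, Srgn was lower by a log2 difference of -0.96 ± 0.32 in IL-15 NK and -1.05 ± 0.32 in resting NK cells (SE, limma adjusted p = 0.0422 and 0.0333). These calls were close to the threshold. The first was lost without IL-15 NK replicate 1 (adjusted p = 0.116), IL-15 NK replicate 3 (0.0981) or splenocyte chip 1 (0.0502), and in 4 other settings (0.0515 to 0.143). The second was lost without resting NK replicate 1 (0.0820) or replicate 3 (0.0725), and in 2 other settings (0.0639 and 0.119). Splenocyte arrays, where Srgn was higher, also had higher sums of every marker list given above other than the NK list. The part of any of these cell types in the Srgn difference was not tested.

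**Figure D2:**
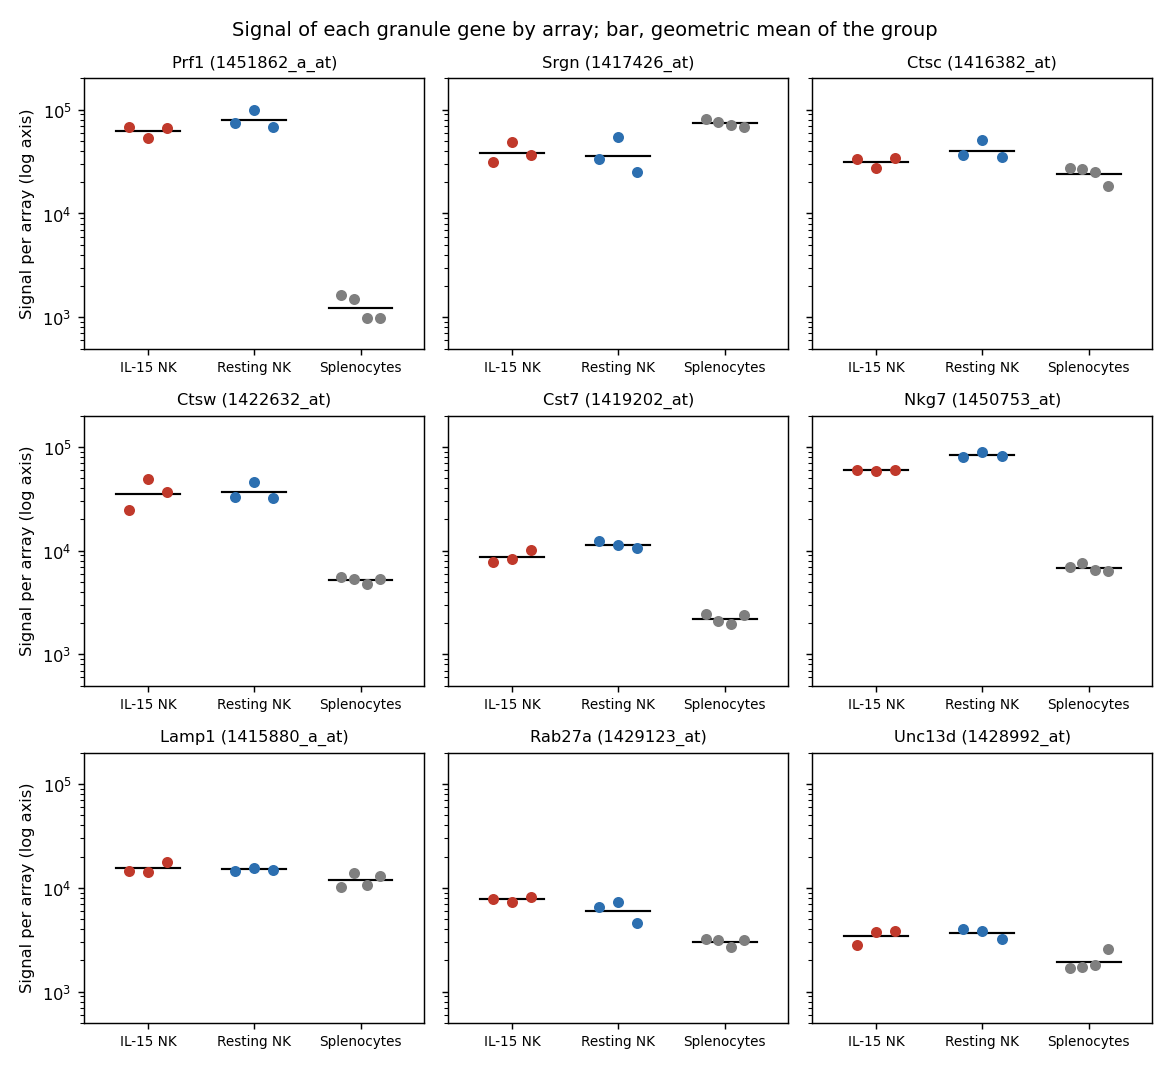
Signal per array on a log axis for the brightest probe set of each of the 9 genes. Each point is 1 array (3 IL-15 NK, 3 resting NK, 4 splenocyte chips) and bars are geometric means of the group. Prf1 shows the widest gap, with 52850.5 or more on every NK array and 1630.9 or less on every splenocyte chip, whereas Lamp1 lies between 10132.5 and 17710.1 on all 10 arrays.

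Among the granule proteases, Ctsc encodes cathepsin C, the dipeptidyl peptidase that activates granzymes. Its bright probe set, 1416382_at, had signals of 33762.0, 27168.9 and 34525.3 on IL-15 NK, 36737.4, 51385.3 and 34860.3 on resting NK and 27229.9, 26873.4, 24974.4 and 18259.6 on splenocyte arrays. Each IL-15 NK array was below each resting array, and the lowest of them fell within the splenocyte range. IL-15 NK minus resting NK was -0.35 ± 0.21 on the log2 scale (SE, 95% interval -0.81 to 0.11, limma adjusted p = 0.249). Ctsc was 1.68-fold higher in resting NK cells than in splenocytes (limma adjusted p = 0.0271). Among the settings that left more than 1 resting array, this call was lost in 2 (adjusted p = 0.0582 and 0.0750). Leaving out resting NK replicates 1 and 2, the arrays with more B-cell marker signal, left 1 resting array. The log2 difference was then 0.54, against 0.75 with all arrays. IL-15 NK cells were 1.32-fold above splenocytes and did not pass (limma adjusted p = 0.185, 95% interval 0.93-fold to 1.86-fold).

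Ctsw encodes cathepsin W, a papain-family cysteine protease found mainly in NK cells and cytotoxic T cells. Probe set 1422632_at had signals of 24636.6, 48843.5 and 36998.5 on IL-15 NK, 33014.9, 45461.8 and 32291.3 on resting NK and 5622.4, 5343.4, 4740.8 and 5332.1 on splenocyte arrays. The IL-15 NK arrays spread on both sides of the resting ones, with a 1.98-fold range, and all NK arrays were above the splenocyte chips. No difference between the NK groups was detected (log2 difference -0.04 ± 0.26 SE, 95% interval -0.62 to 0.54, limma adjusted p = 0.931), and quantile normalization turned its sign to 0.03. Leaving out IL-15 NK replicate 1 or resting NK replicate 2 gave 0.22 and 0.12. Against splenocytes Ctsw was 6.75-fold higher in IL-15 NK and 6.95-fold higher in resting NK cells (limma adjusted p = 0.000156 and 0.000161).

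Cst7 encodes cystatin F, the cathepsin inhibitor. Its probe set 1419202_at had signals of 7707.1, 8238.4 and 10213.5 on IL-15 NK, 12278.9, 11302.0 and 10496.5 on resting NK and 2449.5, 2087.5, 1947.7 and 2381.8 on splenocyte arrays. The 3 groups did not overlap, although the highest IL-15 NK array nearly met the lowest resting array. The log2 difference of IL-15 NK from resting NK was -0.39 ± 0.18 (SE, 95% interval -0.79 to 0.02) and did not pass (limma adjusted p = 0.149). Cst7 was 3.92-fold higher in IL-15 NK and 5.14-fold higher in resting NK cells than in splenocytes (limma adjusted p = 6.30e-05 and 2.81e-05).

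Of the granule membrane proteins, Nkg7 is needed in mice for full degranulation of NK and T cells. Probe set 1450753_at had signals of 60306.3, 58923.2 and 59866.8 on IL-15 NK, 80451.4, 89425.8 and 82028.3 on resting NK and 7017.5, 7521.5, 6549.7 and 6313.9 on splenocyte arrays. Its replicates lay close together, with a 1.02-fold range in IL-15 NK and 1.11-fold in resting NK cells, and the 3 groups were well apart. IL-15 NK cells had 1.41-fold less signal than resting NK cells (log2 difference -0.49 ± 0.18 SE, 95% interval -0.89 to -0.10), which missed the threshold after adjustment (limma unadjusted p = 0.0198, adjusted p = 0.0694). The call was made without resting NK replicate 2 (adjusted p = 0.0436), and in 3 other settings the adjusted p was 0.0349 to 0.0497. Nkg7 reached 33.1% to 46.2% of the largest signal on NK arrays. It was 8.73-fold higher in IL-15 NK and 12.3-fold higher in resting NK cells than in splenocytes (limma adjusted p = 4.56e-06 and 3.44e-06).

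Lamp1, which as CD107a is the usual surface readout of degranulation, had the smallest spread of group means among the 9 genes. Probe set 1415880_a_at had signals of 14556.2, 14029.0 and 17710.1 on IL-15 NK, 14435.6, 15664.0 and 14920.1 on resting NK and 10132.5, 13900.5, 10705.7 and 13073.8 on splenocyte arrays. All NK arrays were above all splenocyte chips, by a margin that was small at its narrowest. IL-15 NK minus resting NK was 0.03 ± 0.17 on the log2 scale (SE, 95% interval -0.35 to 0.42, limma adjusted p = 0.914), with a sign that turned under quantile normalization (-0.05) and without IL-15 NK replicate 3 (-0.07). Against splenocytes Lamp1 was 1.30-fold higher in IL-15 NK and 1.27-fold higher in resting NK cells, and neither difference passed (limma adjusted p = 0.109 and 0.151, 95% intervals 0.99-fold to 1.69-fold and 0.97-fold to 1.65-fold).

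The release machinery was represented by Rab27a, the docking GTPase, and Unc13d, the priming factor Munc13-4, whose loss in humans causes failures of lymphocyte degranulation. Rab27a, at its bright probe set 1429123_at, had signals of 7791.6, 7350.8 and 8177.7 on IL-15 NK, 6504.8, 7220.9 and 4622.2 on resting NK and 3230.6, 3110.3, 2685.7 and 3111.1 on splenocyte arrays. It was the 1 gene of the 9 with every IL-15 NK array above every resting array, yet resting replicate 3 was low and the difference of 0.37 ± 0.21 on the log2 scale did not pass (SE, 95% interval -0.09 to 0.83, limma adjusted p = 0.219). Rab27a was 2.57-fold higher in IL-15 NK and 1.99-fold higher in resting NK cells than in splenocytes (limma adjusted p = 0.000966 and 0.00525). Unc13d, measured by 1428992_at, had signals of 2815.3, 3738.1 and 3857.2 on IL-15 NK, 4032.6, 3820.8 and 3220.9 on resting NK and 1700.8, 1730.7, 1816.0 and 2590.4 on splenocyte arrays. The NK groups overlapped, and splenocyte chip 4 stood above the other 3 chips but below all NK arrays. IL-15 NK minus resting NK was -0.10 ± 0.21 for Unc13d (log2, SE, 95% interval -0.56 to 0.37, limma adjusted p = 0.778), and without IL-15 NK replicate 1 it was 0.05. Unc13d was 1.78-fold higher in IL-15 NK and 1.91-fold higher in resting NK cells than in splenocytes (limma adjusted p = 0.0132 and 0.00861). With resting NK replicates 1 and 2 left out, which left 1 resting array, the second log2 difference was 0.74, against 0.93 with all arrays.

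Counted over the 9 brightest probe sets, all of which were above the floor on every array, 0 passed between the NK groups in limma and 1, Nkg7, had an unadjusted p under 0.05. In that comparison 24.8% of the 25713 probe sets tested passed, 11.0% as higher and 13.8% as lower in IL-15 NK cells. For 4 of the 9 genes (Prf1, Ctsc, Cst7 and Nkg7) every IL-15 NK array was lower than every resting array, a pattern found in 24.5% of all probe sets tested, and for Rab27a every array was higher, as in 16.9% of them. The median log2 difference of the 9 was -0.10, against -0.09 over all 11433 genes tested at their brightest probe set and -0.15 over all probe sets tested. The 95% intervals of the 9 differences reached down to 0.54-fold (Nkg7) and up to 1.77-fold (Rab27a).

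Between resting NK cells and splenocytes, 7 of the 9 genes were higher (Prf1, Nkg7, Ctsw, Cst7, Rab27a, Unc13d and Ctsc, in order of fold), Srgn was lower and Lamp1 did not pass, with 15.5% of 29449 probe sets called higher and 21.4% called lower. In IL-15 NK cells against splenocytes 6 were higher, Srgn was lower, and Ctsc and Lamp1 did not pass, with 16.0% of 28231 probe sets higher and 24.8% lower. Over all probe sets the split of these calls between IL-15 NK cells and splenocytes was 4510 higher and 6991 lower in the values as deposited, and 5839 higher and 5172 lower after quantile normalization, which moved the median difference of all probe sets from -0.19 to 0.08 on the log2 scale. In IL-15 NK cells against splenocytes the log2 differences of Prf1, Nkg7, Ctsw, Cst7 and Rab27a, at 1.36 to 5.65, were larger than that shift. Those of Srgn (-0.96), Unc13d (0.83), Ctsc (0.40) and Lamp1 (0.37) were larger in size too, though Ctsc and Lamp1 did not pass. The 2 comparisons share their splenocyte chips, so their values are not independent of each other.

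**Figure D3:**
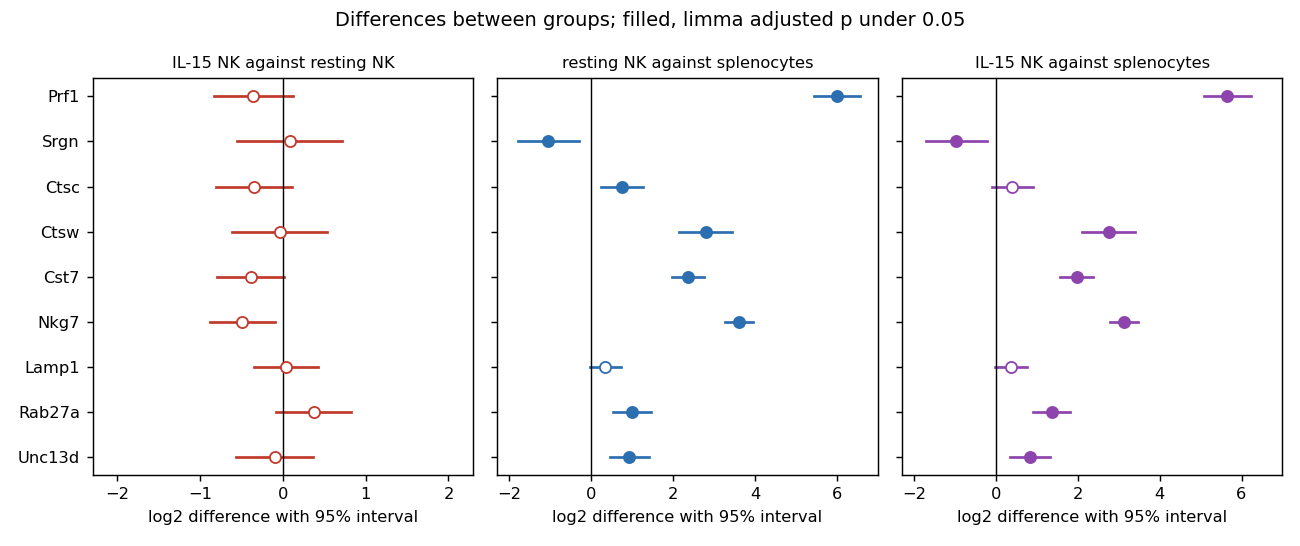
Log2 differences (points) with 95% intervals (lines) for the 9 genes in 3 panels, IL-15 NK against resting cells, resting NK cells against splenocytes and IL-15 NK cells against splenocytes; the first panel has a narrower axis. Filled points passed limma's adjusted threshold of 0.05. No point in the first panel is filled, and Srgn is the 1 gene left of zero in both splenocyte panels.

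Likeness between the 9 profiles over the 10 arrays was measured as the root mean square distance of log2 signals after each gene was centred on its mean. The smallest distances were 0.32 between Ctsc and Lamp1 and 0.32 between Rab27a and Unc13d. Lamp1 was 0.332 from Unc13d and 0.465 from Rab27a, and Ctsc was 0.409 from Unc13d and 0.452 from Rab27a. Ctsw was 0.41 from Cst7 and 0.43 from Nkg7, while Cst7 was 0.61 from Nkg7 and 0.59 from Rab27a. Prf1 and Srgn were farthest apart, at 3.37. The gap between NK cells and splenocytes enters every one of these distances.

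Profiles near that of Prf1 were sought among 8740 other genes above the floor on all NK arrays. Predicted genes, RIKEN clones and genes named only by a clone or accession number had been left out. The 5 nearest were Vegfc, Cd244a, Ifng, Clnk and Klrb1b, at distances of 0.43, 0.52, 0.57, 0.61 and 0.66. Cd244a encodes the NK receptor 2B4, Ifng interferon gamma and Klrb1b a lectin-like receptor of the NKR-P1 family, while Clnk is an adaptor of immune receptor signalling and Vegfc a growth factor of lymphatic vessels. Vegfc was at the floor on all 4 splenocyte chips and Clnk on splenocyte chips 2 and 3, so both distances depend on the floor. Nkg7 was 32nd in this order, Ctsw 88th and Cst7 184th, and the other members were farther, with Rab27a 915th and Srgn 7597th. The order is a description over 10 arrays that share 3 cell sources.

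Sequence upstream of the genes is shown for 3 genes that were higher in NK cells than in splenocytes by at least 3.92-fold in both comparisons, Prf1, Nkg7 and Cst7, and for Lamp1, whose group means differed least; Ctsw, which also met the first condition, is not in the promoter table. Each window holds 250 bases before and 50 bases after the gene's start in RefSeq annotation of mouse build GRCm38.p6, on the plus strand: Prf1 at chr10:61297586-61297885, Nkg7 at chr7:43436888-43437187, Cst7 at chr2:150570165-150570464 and Lamp1 at chr8:13158911-13159210. Capitals mark exact matches on either strand to AGGAAG (an ETS-type motif), TGTGGT (RUNX-type), GGTGTGA (T-box type), TTCNNNGAA (STAT type) or CACGTG (the E-box core bound by regulators of lysosomal genes), and no 2 matches overlap. CACGTG was added to the search after the Lamp1 window had been read.
Prf1: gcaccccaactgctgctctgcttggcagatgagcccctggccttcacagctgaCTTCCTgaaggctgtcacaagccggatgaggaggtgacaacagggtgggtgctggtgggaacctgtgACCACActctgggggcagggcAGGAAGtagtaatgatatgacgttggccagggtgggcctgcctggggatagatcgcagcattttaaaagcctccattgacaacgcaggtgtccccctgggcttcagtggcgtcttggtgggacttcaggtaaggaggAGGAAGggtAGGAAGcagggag
Nkg7: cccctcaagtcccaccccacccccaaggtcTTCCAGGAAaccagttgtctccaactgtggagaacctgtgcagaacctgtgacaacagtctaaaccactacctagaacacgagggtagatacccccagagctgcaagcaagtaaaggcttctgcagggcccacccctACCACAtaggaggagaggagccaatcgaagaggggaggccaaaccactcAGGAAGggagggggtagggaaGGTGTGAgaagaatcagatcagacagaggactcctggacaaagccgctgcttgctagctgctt
Cst7: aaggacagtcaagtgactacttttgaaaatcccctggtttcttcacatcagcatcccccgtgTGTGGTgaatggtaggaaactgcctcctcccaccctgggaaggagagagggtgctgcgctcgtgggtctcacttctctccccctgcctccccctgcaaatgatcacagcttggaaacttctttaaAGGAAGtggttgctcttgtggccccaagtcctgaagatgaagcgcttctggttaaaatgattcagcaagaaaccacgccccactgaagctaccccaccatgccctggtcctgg
Lamp1: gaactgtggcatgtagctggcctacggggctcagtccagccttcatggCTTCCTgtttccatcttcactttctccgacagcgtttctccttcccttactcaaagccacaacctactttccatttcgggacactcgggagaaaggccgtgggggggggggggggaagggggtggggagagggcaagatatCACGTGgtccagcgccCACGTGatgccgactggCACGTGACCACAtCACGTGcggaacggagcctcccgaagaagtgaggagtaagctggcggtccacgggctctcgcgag
The Prf1 window held 4 AGGAAG matches, and the Nkg7, Cst7 and Lamp1 windows held 1 each. Those of Prf1 lie at -197, -109, 28 and 37 from the start, so the matches at 28 and 37 are not upstream of it. AGGAAG occurs in 35.35% of the 32851 promoter windows of the same length, and at least 4 matches occur in 142 of them (0.432%). All 4 windows held 1 TGTGGT match, which 16.76% of windows have. Nkg7 alone of the 4 also held GGTGTGA and TTCNNNGAA, found in 3.98% and 8.30% of windows. The Lamp1 window held 4 CACGTG matches, whose first bases lie at -61, -45, -28 and -15 from the start. CACGTG is found in 7.15% of all windows and at least 4 times in 8 of them, and none of the other 3 windows shown has it. The CACGTG at -28 and the TGTGGT match of Lamp1, which is on the minus strand, are adjacent and appear as 1 run of capitals. Windows were given for 7 of the 9 genes, all but Ctsw and Unc13d, and a match of letters does not show that a factor binds.

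The other 6 probe sets of Prf1, Ctsc and Rab27a were dim, and 5 of them were highest in splenocytes, unlike the bright ones. For perforin, 1450335_at had signals of 70.0, 168.7 and 68.8 on IL-15 NK, 121.2, 215.4 and 182.3 on resting NK and 412.6, 346.4, 411.0 and 119.6 on splenocyte arrays. It did not exceed the floor after IL-15 and was highest on splenocytes, opposite to 1451862_a_at, and was at least 1.78-fold lower in IL-15 NK and at least 1.67-fold lower in resting NK cells. Against IL-15 NK cells it passed the filter through 3 splenocyte chips alone, so the first direction was fixed and its call is not evidence. The second difference had a limma adjusted p of 0.0234, a call kept in 5 of 16 alternatives and lost without resting NK replicate 1 or 3, without splenocyte chip 1, 2 or 3 and in 6 other settings (adjusted p = 0.0574 to 0.402).

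The dim Ctsc probe set 1446834_at was the 1 member probe set of the 12 tested that passed between the NK groups. Its signals were 250.7, 243.8 and 225.5 on IL-15 NK, 678.2, 456.8 and 674.4 on resting NK and 480.8, 390.0, 396.4 and 399.2 on splenocyte arrays. All IL-15 NK arrays were lower than all others, and their mean was 2.47-fold below that of resting NK cells (-1.31 ± 0.29 on the log2 scale, SE, limma adjusted p = 0.00806), but not when every dim probe set was tested too (adjusted p = 0.0594). The bright Ctsc probe set was 1.28-fold lower without passing. The remaining Ctsc probe set, 1437939_s_at, had signals of 116.5, 196.2 and 266.7 on IL-15 NK, 312.6, 545.9 and 242.2 on resting NK and 1049.3, 950.6, 1051.0 and 662.0 on splenocyte arrays. It was at least 4.32-fold lower in IL-15 NK and 2.64-fold lower in resting NK cells than in splenocytes (limma adjusted p = 0.00215 and 0.0169), whereas the bright Ctsc probe set was higher in both NK groups by the group means. The call in resting NK cells was lost with a lower floor, with no filter and after quantile normalization (adjusted p = 0.0565 to 0.0725). Between IL-15 NK and splenocytes 1446834_at was 1.73-fold lower (limma adjusted p = 0.0334), a call kept in 7 of 15 alternatives. It was lost without any 1 of the 3 IL-15 NK replicates or splenocyte chip 1 and in 4 other settings (adjusted p = 0.0537 to 0.524), and after quantile normalization the log2 difference was -0.23, against -0.79 as deposited. Against splenocytes in resting NK cells it did not pass (adjusted p = 0.151), but did without resting NK replicate 2 (0.0370).

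Of the 3 dim Rab27a probe sets, 1425285_a_at had signals of 277.6, 198.8 and 248.2 on IL-15 NK, 140.6, 132.1 and 109.5 on resting NK and 464.7, 485.2, 494.4 and 247.2 on splenocyte arrays. It was above the floor on all IL-15 NK and no resting NK arrays, a difference of at least 1.33-fold that did not pass (limma adjusted p = 0.226). It entered this test through the IL-15 NK arrays alone. Its direction, that of the bright Rab27a probe set, was therefore fixed and is not evidence. Relative to splenocytes it was 1.70-fold lower in IL-15 NK cells (limma adjusted p = 0.0189), a call kept in 8 of 15 alternatives and lost without IL-15 NK replicate 2, without splenocyte chip 1, 2 or 3 and in 3 other settings (adjusted p = 0.0583 to 0.518). In resting NK cells it was at least 2.27-fold lower, a direction that the filter fixed. The probe set 1425284_a_at lay between 51.7 and 298.2 on all arrays and exceeded the floor on 1 array of each NK group and on all 4 splenocyte chips. It could pass the filter only by being higher in splenocytes, so its calls there are no evidence of a difference. Signals of 1454438_at lay between 124.6 and 281.5, and it passed in no comparison. After quantile normalization, or with a lower floor, the dim Prf1 probe set, 1425285_a_at and 1425284_a_at no longer passed in IL-15 NK cells against splenocytes (adjusted p = 0.0631 to 0.841). The probe sets 1425284_a_at and 1454438_at and the dim Prf1 probe set were above the floor on too few NK arrays to be tested between the NK groups. With these probe sets included, 7 of 15 were called higher and 5 lower in resting NK cells against splenocytes, and 6 higher and 6 lower in IL-15 NK cells against splenocytes, but the dim Prf1 probe set and the Rab27a probe sets 1425284_a_at and 1454438_at entered these tests wholly or mainly through the splenocyte chips, as did 1425285_a_at in the one with resting NK cells, so neither count of lower calls is a result about the members.

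**Figure D4:**
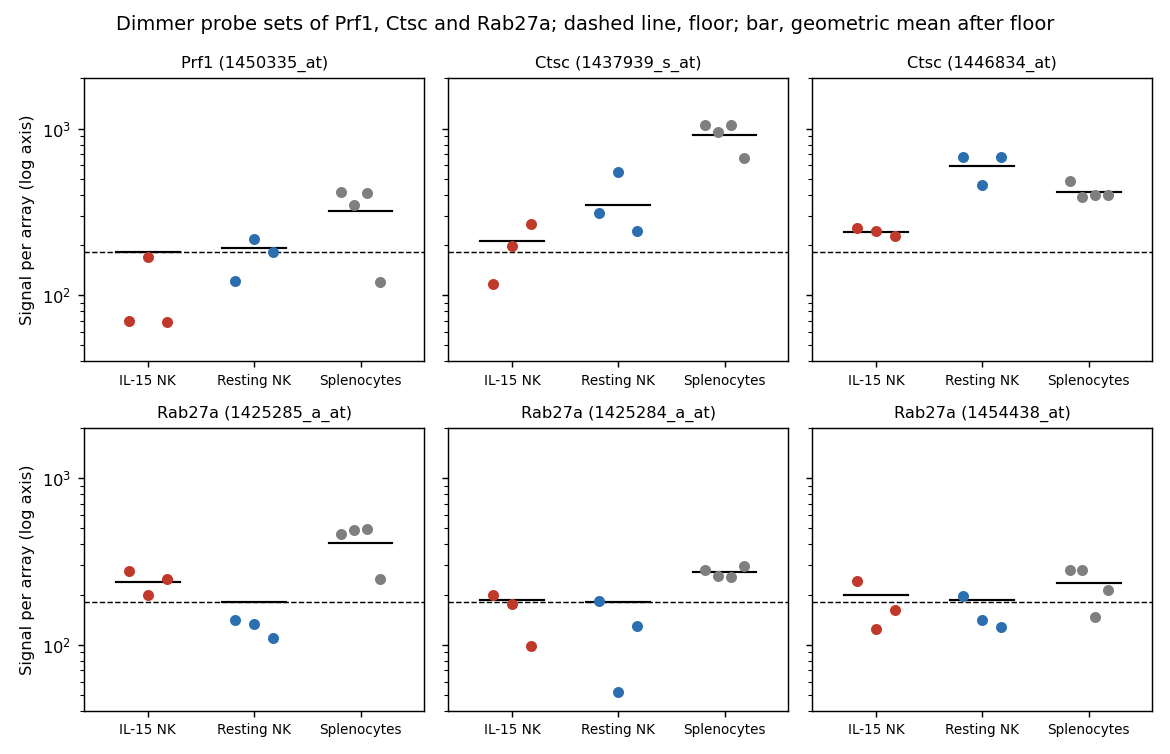
Signal per array (log axis) for the 6 dimmer probe sets of Prf1, Ctsc and Rab27a in IL-15 NK, resting NK and splenocyte arrays. The dashed line is the floor of 179.85 and bars are geometric means after signals were raised to it. Splenocyte chips have the highest group mean in 5 of the 6, and Ctsc 1446834_at is highest in resting NK cells.

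Other genes of the granule pathway were counted in 3 lists, each gene at its brightest probe set. Of 16 tested genes of docking, priming and fusion, 0 passed as higher and 3 as lower after IL-15, with a median log2 difference of -0.35, against a median of -0.09 and shares of 13.9% higher and 11.9% lower over the 11433 genes tested. With the test adjusted over 1 probe set per gene, 1 gene of the list passed as higher. The 3 that fell were Stx11, Rab37 and Syt11. Stx11, a syntaxin of granule fusion, had signals of 3974.7, 3515.8 and 4699.4 on IL-15 NK and 6014.8, 6273.8 and 8803.1 on resting NK arrays, with no overlap, a 1.72-fold fall (limma adjusted p = 0.0230). The small GTPase gene Rab37 fell 1.89-fold and the synaptotagmin gene Syt11 fell 3.12-fold (limma adjusted p = 0.0249 and 0.00537). Against splenocytes, 9 of 17 tested genes of this list were higher and 0 lower in resting NK cells, and 6 were higher and 3 lower in IL-15 NK cells. The list's median log2 difference was 0.32 in IL-15 NK and 0.49 in resting NK cells. Over all genes tested the medians were -0.10 and -0.06, with 20.4% higher and 23.0% lower in IL-15 NK cells and 17.0% higher and 21.3% lower in resting NK cells. Stx11 was 2.75-fold higher in IL-15 NK and 4.71-fold higher in resting NK cells than in splenocytes (limma adjusted p = 0.00107 and 0.000128).

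Of 23 genes of lysosome biogenesis and protein sorting, 2 rose and 3 fell after IL-15, with a median of 0.04. These counts are 8.70% and 13.0% of the list, against 13.9% higher and 11.9% lower over all genes tested. M6pr, a mannose 6-phosphate receptor that delivers enzymes including granzymes to lysosomes, had signals of 18720.3, 21735.6 and 21135.6 on IL-15 NK and 15400.0, 9910.6 and 11603.1 on resting NK arrays and rose 1.69-fold (limma adjusted p = 0.0195). Ctsz, cathepsin Z, rose 2.10-fold (adjusted p = 0.00981). The cathepsin gene Ctsl fell by 2.71-fold (limma adjusted p = 0.00660), and Ctss, named because only 3 fell, by 0.75 on the log2 scale (adjusted p = 0.0159). The third, the cathepsin gene Ctsh, was lower by at least 4.41-fold (limma adjusted p = 0.0194). It entered this test through the resting NK arrays alone, so its direction was fixed and its call is not evidence. Ctsh signals were 77.2, 5.6 and 21.2 on IL-15 NK, 1236.0, 1570.4 and 256.4 on resting NK and 17793.0 to 19227.6 on splenocyte arrays, so within resting NK cells it was high on the same 2 replicates as the B-cell markers. Whether other cells account for it was not tested. Against splenocytes 7 of the 23 genes were higher and 6 lower in IL-15 NK cells (median -0.15), and 5 were higher and 6 lower in resting NK cells (median -0.01). Over all genes tested, 20.4% were higher and 23.0% lower in IL-15 NK cells, and 17.0% and 21.3% in resting NK cells. The lower calls in IL-15 NK cells include Ctsh, which entered that test through the splenocyte chips alone.

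The 14 genes of cytoskeleton and granule transport had a median log2 difference of -0.08 after IL-15. Of them 1 was higher and 0 lower, where 13.9% and 11.9% of all genes tested were. The 1 was Stmn1, a microtubule-destabilising protein of dividing cells, named after its value was seen, with a log2 rise of 1.85 (limma adjusted p = 0.000144). The 2 brightest, Coro1a, an actin regulator needed for lytic granule release in human NK cells, and Arpc2, a subunit of the actin-nucleating Arp2/3 complex, differed by 0.51 and -0.02 and did not pass (limma adjusted p = 0.20 and 0.956). Against splenocytes, 5 of the 14 were higher and 2 lower in IL-15 NK cells (median 0.12), and 4 were higher and 3 lower in resting NK cells (median 0.14). The shares over all genes tested were 20.4% higher and 23.0% lower in IL-15 NK cells, and 17.0% and 21.3% in resting NK cells.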

How the data were processed

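Each probe set has 1 intensity on a linear scale, which the authors obtained with GCOS 1.4 (submitters' processing notes). How probes were summarised, and on which genome build, is not given in the sources used here. Every array had the same trimmed mean of 1500 units (2% left out at each end), so no further scaling was applied, and a change in total RNA per cell is hidden by this scaling. The floor of 179.85 was the median of the arrays' 40th percentiles, and log2 was taken after it. Of 45037 non-control probe sets, those exceeding the floor on 3 or more of the arrays compared entered the test, which used limma 3.58.1 (R 4.3.3; lmFit, then eBayes with its trend option; 2-sided p-values were adjusted by Benjamini-Hochberg across the probe sets tested, with a threshold of 0.05). Folds are ratios of geometric means, and "at least" marks a dimmer group with arrays at the floor.

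The NK groups were compared on 6 arrays without a block. For splenocytes all 3 groups shared 1 variance; the 4 chips were reduced to 2 averages in the 3 ways they can be paired, and the highest p was used. The design speaks of 3 pairs of NK samples without linking them to numbers, and the 3 pairs of same-numbered NK arrays had deviations from group means that correlated at 0.07, 0.24 and 0.04, so the numbers were not taken to pair the arrays. Probe sets were named by GEO's platform annotation, which assigned no probe set to a member together with another gene. Named genes were all members, up to 4 genes per pathway list with the largest passing differences between NK groups (or the 2 brightest where fewer than 2 passed), and the 5 profiles nearest to Prf1. The members and lists were chosen with earlier results of these data known. Precision is limited by the number of arrays.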

Additional observations from a re-analysis of the deposited data

Results flagged for a closer look

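In 3 of the 15 member probe sets 1 splenocyte chip stood apart from the other 3, by a gap larger than Dixon's 95% limit for 4 values; chance alone gives this in about 5% of groups. For Unc13d it was chip 4, at 2590.4 signal units against 1700.8 to 1816.0 on the others. Rab27a probe set 1425285_a_at was low on the same chip, at 247.2 against 464.7 to 494.4. Ctsc probe set 1446834_at was high on chip 1, at 480.8 against 390.0 to 399.2. The 4 chips come from 2 biological samples.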

How the results depend on the processing

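Prf1, Nkg7, Ctsw, Cst7 and Rab27a at their brightest probe sets passed against splenocytes under every alternative run, in both NK groups. Unc13d did so in IL-15 NK cells, and in resting NK cells under every alternative that left more than 1 resting array. The calls of Srgn and Ctsc against splenocytes were lost under some. For Srgn the adjusted p ranged up to 0.119 in resting NK and 0.143 in IL-15 NK cells. For Ctsc in resting NK cells the adjusted p ranged up to 0.0750 where more than 1 resting array was left. For Nkg7 between the NK groups it was 0.0349 to 0.185. As counts of member probe sets, lower calls in IL-15 NK against resting NK were 1 as reported and 0 with no filter. They were 2 with a pseudocount of 100 in place of the floor or with all 3 groups in the fit. When single replicates were left out they were 1 to 2. Higher calls were 0 as reported and 1 after quantile normalization, the dim Rab27a probe set 1425285_a_at (limma adjusted p = 0.0459). Lower calls in resting NK against splenocytes were 5 as reported, 1 with 1 probe set per gene (fewer probe sets tested), 2 with a lower floor of 54.2, with no filter or after quantile normalization, 3 with the pseudocount or with only the 2 groups in the fit, and 3 to 5 without single arrays. In IL-15 NK against splenocytes they were 6 as reported, 1 with 1 probe set per gene or after quantile normalization, 2 with the lower floor, 3 with the pseudocount and 2 to 6 without single arrays. Apart from fewer probe sets tested, the cause was not tested. Signs turned for differences that had not passed: after quantile normalization for Ctsw (0.029) and Lamp1 (-0.047) between NK groups and for Rab27a 1454438_at in IL-15 NK against splenocytes (0.040), and with resting replicates 1 and 2 left out, chosen after seeing the data, for Ctsw (0.13) and Unc13d (0.094). Without single replicates Ctsw ranged from -0.27 to 0.22, Lamp1 from -0.070 to 0.098, Srgn from -0.18 to 0.39 and Unc13d from -0.19 to 0.047 on the log2 scale. With the replicate block 1 member probe set was called lower and 0 higher, as without it, and Nkg7 had an adjusted p of 0.126. IL-15 NK replicate 1 correlated best with resting replicate 3 (0.124, against 0.071 with resting replicate 1). IL-15 NK replicates 2 and 3 correlated best with the resting replicates of the same number (0.236 and 0.044). For replicate 3 the margin was small (0.039 with resting replicate 1). Over all probe sets 6373 passed between the NK groups, 7157 with the replicate block, 2920 with no filter, 4090 without IL-15 NK replicate 1 and 4096 without replicate 3. Dim probe sets near the floor carry the least information.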

Other observations

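Among the resting NK arrays, replicate 2 had the highest signal for 7 of the 9 genes (Prf1, Srgn, Ctsc, Ctsw, Nkg7, Lamp1 and Rab27a), while Cst7 and Unc13d were highest on replicate 1. Of 5885 probe sets at least as bright in resting NK cells as Unc13d, 42.6% were highest on replicate 2, 34.1% on replicate 3 and 23.3% on replicate 1. The top of the signal scale was 270300.9 on replicate 2, against 178487.6 and 177504.1 on replicates 1 and 3, and replicate 2 had the highest ratios of 3-prime to 5-prime signal of the 10 arrays, for Gapdh (9.54) and for Actb (6.51). The part of these in the spread of the members was not tested. On IL-15 NK arrays Srgn, Ctsw, Cst7 and Unc13d were lowest on replicate 1, while Prf1, Ctsc, Nkg7, Lamp1 and Rab27a were lowest on replicate 2.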
